A study of Mus musculus with 11 samples.

Results

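The WNT pathway was examined in mouse ESCs through 51 genes, chosen by name among the 23288 gene symbols of the expression table. They comprise 18 WNT ligands, 12 receptors (10 Frizzled genes with Lrp5 and Lrp6), 7 secreted inhibitors, 3 R-spondins, 4 TCF/LEF transcription factors and 7 target and feedback genes. WNT ligands are secreted, lipid-modified proteins that bind a Frizzled receptor together with the co-receptor LRP5 or LRP6, which stops the destruction of β-catenin and lets it enter the nucleus, where it acts through TCF/LEF factors. SFRP and DKK proteins block ligand or co-receptor outside the cell, R-spondins raise the receptor level by acting on the ligases RNF43 and ZNRF3, and AXIN2 feeds back on β-catenin. In ESCs this pathway favours self-renewal, TCF7L1 being a repressor of pluripotency genes. Many of the developmental genes among its members are known targets of Polycomb complexes, which keep genes silent through RING1B and a CBX subunit.

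The cells were E14Tg2A ESCs, grown without feeders in serum and LIF. RNA-seq compared 2 libraries from ESCs infected with lentivirus carrying a control shRNA (shCtl) with 2 from ESCs that received an shRNA against Cbx6 (shCbx6). Infected cells were selected with an antibiotic. The study used 2 shRNAs against Cbx6, and the labels do not say which of them each shCbx6 library carried. ChIP-seq peak lists came from 2 anti-HA replicates in CBX6-3×HA ESCs, a line grown from a single sorted cell in which endogenous CBX6 was tagged by CRISPR-Cas9, and from 1 CBX7 and 1 RING1B experiment. The comparisons ask which WNT genes carry CBX6, CBX7 and RING1B, and how their transcripts stood after CBX6 depletion.

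Cbx6 itself was measured at 17.4 and 14.9 FPKM in shCtl. In shCbx6 it was at 9.53 FPKM in replicate 1 and 5.40 FPKM in replicate 2. FPKM values are scaled to the length of the transcript and the fragments of the library, so that levels can be set side by side between genes. The shCbx6 libraries were both below the shCtl libraries, replicate 2 the lower (log2 fold change of FPKM + 1, -1.06 ± 0.26 SE, n = 2 libraries per group, limma adjusted p = 0.252). Relative depths read from the smallest steps of the FPKM values were 1, 1.01, 0.956 and 1.13, in the same order of libraries. All 10 ESC markers were expressed in every library, with summed levels of 7803 and 8899 FPKM in shCtl against 7153 and 6110 FPKM in shCbx6, and 7 of the 10 were lower and 1, Utf1, higher in both shCbx6 libraries, beside 24.3% and 18.2% of tested genes. The 6 trophectoderm markers were each higher in both shCbx6 libraries, beside 16.5% of all genes of the table and 24.3% of detected genes under a mean of 1 FPKM. Of these 6 markers, 2 had a mean of at least 1 FPKM. Their sums were 2.98 and 2.5 FPKM in shCtl against 8.40 and 20.9 FPKM in shCbx6, while Cdx2, which defines that lineage, reached 0.511 FPKM at most. Beside 16.5% and 16.1% of all genes of the table, 4 of 8 fibroblast markers were higher and 1 lower in both shCbx6 libraries. Their sum, 156 and 130 FPKM in shCtl against 129 and 96.8 FPKM in shCbx6, was carried by Fn1, Thy1 ranged from 1.16 to 3.82 FPKM and Lum was listed at 0 in all libraries. The collagen gene Col1a1 was at 0.0336 and 0.0398 FPKM in shCtl against 0.0984 and 0.549 FPKM in shCbx6. The 6 neuroectoderm markers summed to 4.41 and 3.77 FPKM in shCtl against 7.97 and 5.57 FPKM in shCbx6, with Nes and Pax6 higher in both shCbx6 libraries and Sox1 lower. The sums of 6 mesoderm markers (2.74 and 1.89 FPKM against 2.44 and 3.10 FPKM) and 6 primitive endoderm markers (2.13 and 1.94 FPKM against 1.84 and 2.72 FPKM) overlapped between the groups. The mesoderm sum was carried by Eomes. In each of these lists 3 markers were higher and 2 lower in both shCbx6 libraries, beside 16.5% and 16.1% of all genes of the table. The part of these markers in the results for the WNT genes was not tested. Replicate 2 of shCbx6 thus had the lowest Cbx6 level and the highest trophectoderm sum, and member values from this library are given apart from those of replicate 1 throughout.

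Promoters of 6 members that differ in their peaks or their transcripts are shown first, each 300 bases long and reaching from 250 bases before to 50 bases after a transcript start. The sequences are those of RefSeq on the GRCm38.p6 assembly, read 5′ to 3′ on the gene's strand, and each was found once in the mm9 assembly of the peak lists, whose coordinates are given. CG dinucleotides are in capitals in the first 5, since CpG-rich promoters are the usual sites of Polycomb complexes. Wnt3a (chr11:59104204-59104503, minus strand) is a silent ligand gene with peaks in all 4 lists, and Wnt16 (chr6:22237977-22238276, plus strand) the ligand gene without a peak in CBX6 replicate 1. Lef1 (chr3:130812991-130813290, plus strand) had peaks in all lists and the lowest p of the members between shCbx6 and shCtl. Fzd7 (chr1:59538741-59539040, plus strand) and Fzd5 (chr1:64784275-64784574, minus strand) are the most abundant Frizzled genes in these ESCs. In the promoter of Sp5 (chr2:70312730-70313029, plus strand), the capitals mark instead a match to the TCF/LEF motif CTTTGAT.
Wnt3a: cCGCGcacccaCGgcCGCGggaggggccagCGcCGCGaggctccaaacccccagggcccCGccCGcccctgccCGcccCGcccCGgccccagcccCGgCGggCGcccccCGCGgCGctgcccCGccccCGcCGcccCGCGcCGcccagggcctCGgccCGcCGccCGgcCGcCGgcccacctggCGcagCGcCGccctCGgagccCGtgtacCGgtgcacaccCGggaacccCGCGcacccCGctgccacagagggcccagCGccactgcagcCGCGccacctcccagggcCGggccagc
Wnt16: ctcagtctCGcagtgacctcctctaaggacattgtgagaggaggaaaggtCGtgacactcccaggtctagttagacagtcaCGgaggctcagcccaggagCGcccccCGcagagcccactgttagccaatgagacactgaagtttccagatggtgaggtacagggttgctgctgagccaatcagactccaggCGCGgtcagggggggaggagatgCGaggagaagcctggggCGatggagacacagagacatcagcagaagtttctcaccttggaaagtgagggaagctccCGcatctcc
Lef1: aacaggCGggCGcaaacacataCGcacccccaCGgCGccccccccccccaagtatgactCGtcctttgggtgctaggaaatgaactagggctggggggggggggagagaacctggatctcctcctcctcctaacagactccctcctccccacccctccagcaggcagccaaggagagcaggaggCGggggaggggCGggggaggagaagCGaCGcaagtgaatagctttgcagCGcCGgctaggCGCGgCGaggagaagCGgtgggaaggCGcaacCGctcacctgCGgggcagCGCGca
Fzd7: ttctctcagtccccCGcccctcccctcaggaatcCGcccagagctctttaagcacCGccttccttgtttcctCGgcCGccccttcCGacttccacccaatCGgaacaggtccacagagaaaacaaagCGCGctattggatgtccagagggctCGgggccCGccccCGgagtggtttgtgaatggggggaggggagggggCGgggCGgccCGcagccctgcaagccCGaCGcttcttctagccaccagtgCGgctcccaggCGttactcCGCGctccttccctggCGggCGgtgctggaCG
Fzd5: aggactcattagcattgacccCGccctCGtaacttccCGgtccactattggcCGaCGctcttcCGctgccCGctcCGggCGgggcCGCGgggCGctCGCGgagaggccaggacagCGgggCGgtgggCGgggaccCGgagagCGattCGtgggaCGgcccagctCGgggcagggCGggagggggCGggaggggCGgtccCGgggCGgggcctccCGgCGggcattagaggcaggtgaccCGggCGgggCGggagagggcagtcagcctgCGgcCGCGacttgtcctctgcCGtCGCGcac
Sp5: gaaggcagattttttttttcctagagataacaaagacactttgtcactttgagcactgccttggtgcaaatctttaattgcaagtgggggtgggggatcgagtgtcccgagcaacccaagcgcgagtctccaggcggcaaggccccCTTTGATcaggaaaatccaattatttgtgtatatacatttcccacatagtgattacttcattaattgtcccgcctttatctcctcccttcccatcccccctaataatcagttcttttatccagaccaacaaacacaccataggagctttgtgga

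These windows held 45 CG dinucleotides in Wnt3a, 10 in Wnt16, 21 in Lef1, 24 in Fzd7, 38 in Fzd5 and 6 in Sp5. Wnt3a and Fzd5 were thus similarly rich in CG, although the first promoter lay under peaks of all 4 lists and the second under a CBX6 replicate 1 peak alone. Of the 51 members, 32 had a promoter in the sequence table. With the 1 promoter nearest the annotated start taken for each, the median was 30 CG dinucleotides for members and 7 for all 32851 promoters of the table. The second value had no such choice of promoter, so the member values here and below are not matched to it. The promoters left out, of Lef1, Rnf43, Tcf7, Tcf7l2, Wnt5b and Wnt11, each held fewer CG than the one taken. An observed to expected CpG ratio of at least 0.6 was found in 84.4% of the member promoters and in 35.8% of all promoters. CpG content did not separate members by their peaks, with medians of 29 in the 25 promoters of members present in all 4 lists and 34 in the 7 of members in fewer lists. The motifs CTTTGAT and CTTTGAA, searched on both strands, occurred in 3 of the 32 member promoters (9.38%), those of Wnt11, Dkk1 and Sp5, and in 8.65% of all promoters. A promoter of Wnt5b that was left out also held 1 match. Promoters of Ccnd1, Cdx1, Dkk3, Fzd2, Fzd3, Fzd6, Fzd8, Lgr5, Lrp5, Lrp6, Rspo2, Rspo3, Sfrp1, Sfrp4, Wnt5a, Wnt7b, Wnt8a, Wnt10a and Znrf3 were not analysed here.

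Polycomb peaks covered most WNT genes. A member was counted as a target if a peak overlapped its gene body or the 2.5 kb before its start by at least 1 bp. RING1B, the ubiquitin ligase of PRC1, had peaks at 42 of 51 members, against 16.1% of the 21921 genes with coordinates, and CBX7, the main CBX subunit of ESCs, at 43 members against 17.9% of genes. CBX6 replicate 2 had peaks at 40 members against 16.6% of genes. CBX6 replicate 1 had peaks at 49 members, but its list was far longer, with 21865 peaks against 5103, and covered 56.9% of all genes. Since WNT genes are mostly silent in ESCs, shares among genes under 1 FPKM in shCtl are the closer background, and these were 34.3% for CBX6 replicate 1, 21.2% for CBX6 replicate 2, 24.3% for CBX7 and 22.6% for RING1B. Among genes at 1 FPKM or more they were 79.5%, 12.0%, 11.5% and 9.54%. Peaks in all 4 lists were found at 37 members, against 11.5% of genes.

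**Figure D1:**
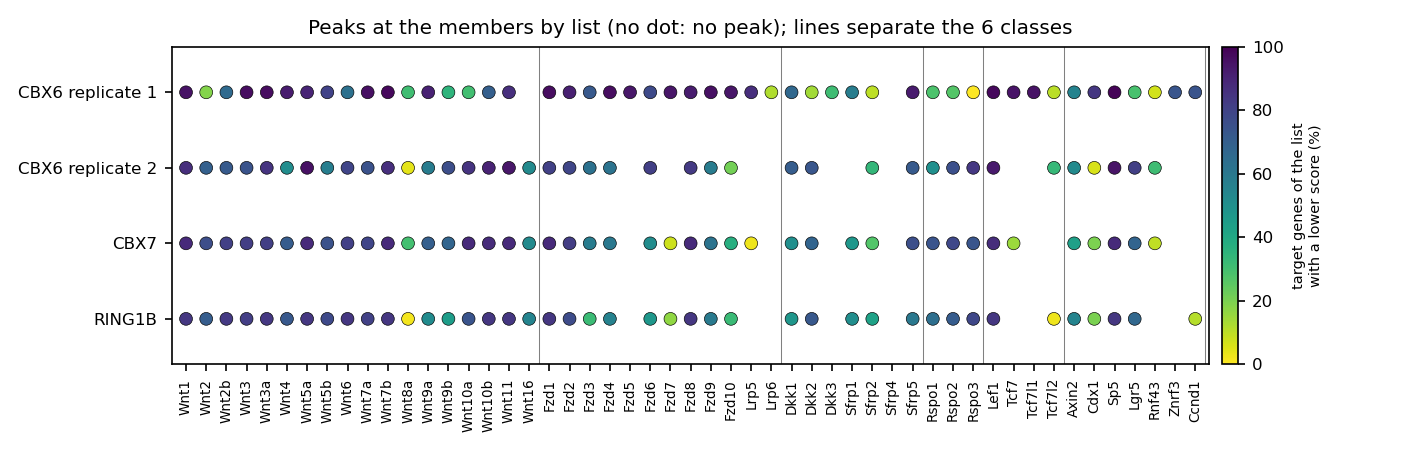
Peaks at the 51 members (horizontal axis, in 6 classes) in each of the 4 peak lists (vertical axis). Colour gives the percent of the target genes of that list whose highest peak score was lower. Every ligand column is filled in the CBX6 replicate 2, CBX7 and RING1B rows, whereas Fzd5, Lrp6, Dkk3, Tcf7l1 and Znrf3 have a dot in the CBX6 replicate 1 row alone.

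The classes differed in their occupancy. All 18 ligand genes had peaks in CBX6 replicate 2, CBX7 and RING1B, and 17 of 18 in CBX6 replicate 1, the exception being Wnt16. The 3 R-spondin genes had peaks in all 4 lists, although their CBX6 replicate 1 scores were 50.4 to 93.2, and 0 of 3 had a peak in that list at a score of at least 100. Among the 12 receptor genes, 12 had CBX6 replicate 1 peaks, 8 CBX6 replicate 2 peaks, 10 CBX7 peaks and 9 RING1B peaks, in the same way as 6, 4, 5 and 5 of the 7 inhibitors and 7, 5, 5 and 5 of the 7 targets. Of the 4 TCF/LEF genes, 2 had peaks of RING1B, namely Lef1 and Tcf7l2, and 2 had peaks of CBX7, namely Lef1 and Tcf7. At a score of at least 100, each of these counts was 1, that of Lef1.

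Members outside the shared set fell into a few patterns. Sfrp4, an extracellular WNT antagonist, had no peak in any list, like 40.1% of genes. Fzd5, Lrp6, Dkk3, Tcf7l1 and Znrf3 had peaks in CBX6 replicate 1 alone, a pattern that covered 38.1% of all genes and in which, except for Dkk3, the members were expressed above 1 FPKM in every library. Lrp5, Tcf7 and Ccnd1, the gene of cyclin D1, had peaks in 2 lists. Peaks in 3 lists were found at Wnt16, Fzd7, Sfrp1, Tcf7l2 and Rnf43, of which Fzd7 and Sfrp1 lacked CBX6 replicate 2 and Rnf43 lacked RING1B. Scores at Fzd7 were 67.6 for CBX7 and 105 for RING1B, low for these lists, and 325 for CBX6 replicate 1. At Rnf43, the scores of all lists lay between 60.7 and 99.9. In shCtl, the median level was 0.151 FPKM for the 37 members in all 4 lists and 9.26 FPKM for the 14 in fewer lists, beside 0.196 FPKM for all genes with peaks in all 4 lists.

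Sp5 and Lef1 were among the members with the highest CBX6 peaks in both replicates. Sp5, a transcription factor gene induced by β-catenin, had the highest score of the members in CBX6 replicate 1 (540), followed by Lef1 (450). In CBX6 replicate 2, Wnt5a, a ligand best known for β-catenin-independent signalling, came first with 3016 and Sp5 second with 2626, followed by Wnt11 with 2463 and Lef1 with 2215, while in replicate 1 the score of Wnt5a was 269. Many peaks share a score of 3100, at which the CBX7 and RING1B lists hold 403 and 507 peaks, so that members at this value cannot be ordered. In CBX7 these were Wnt1, Wnt5a, Wnt7b, Wnt10a, Wnt11, Fzd1, Fzd8 and Sp5, and in RING1B Wnt1, Wnt5a, Wnt6, Wnt7b, Wnt10b, Wnt11, Fzd1, Fzd8, Lef1 and Sp5. The median ligand gene scored above 81.0% of the target genes of CBX7 and 81.2% of those of RING1B, and the median receptor gene above 59.1% and 55.9%. In CBX6 replicate 2 these values were 75.5% for ligands and 70.8% for receptors, and in CBX6 replicate 1 the order was the opposite, 86.4% and 93.1%. Wnt8a, the ligand of the early primitive streak, stood apart, with a RING1B score of 53.4 and a CBX7 score of 179 on peaks centred 5420 bp and 5469 bp after its start, at its 3′ end.

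Peaks at the members were wide. The median width was 3306 bp for CBX7 and 3210 bp for RING1B, beside 2076 bp and 2315.5 bp over all peaks of these lists. Over Sp5 (chr2:70312980-70315786, plus strand), single peaks of 6415 bp, 7559 bp, 6895 bp and 7265 bp in CBX6 replicates 1 and 2, CBX7 and RING1B covered the whole gene and the printed promoter. A RING1B peak of 9283 bp (chr3:130807933-130817215) extended from upstream of Lef1 to beyond its start, and CBX6 replicate 2 divided the same stretch into 3 peaks, the highest centred 1757 bp after the start in an intron. Wnt5a (chr14:29317936-29340633, plus strand) had its widest peak in CBX6 replicate 2, 10303 bp long and centred in an intron 4214 bp after the start. At Fzd7, RING1B covered the start (chr1:59538917-59541198, centred in the coding exon), while the CBX7 peak lay wholly inside the gene and did not reach the printed promoter. Fzd5 carried a CBX6 replicate 1 peak over its start (chr1:64782025-64785303) and another centred in its UTR. For all 14 ligands in the sequence table, the promoter nearest the annotated start was overlapped by CBX6 replicate 2, CBX7 and RING1B peaks. Other promoters listed for Wnt5b, inside its gene, were overlapped by none of these.

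**Figure D2:**
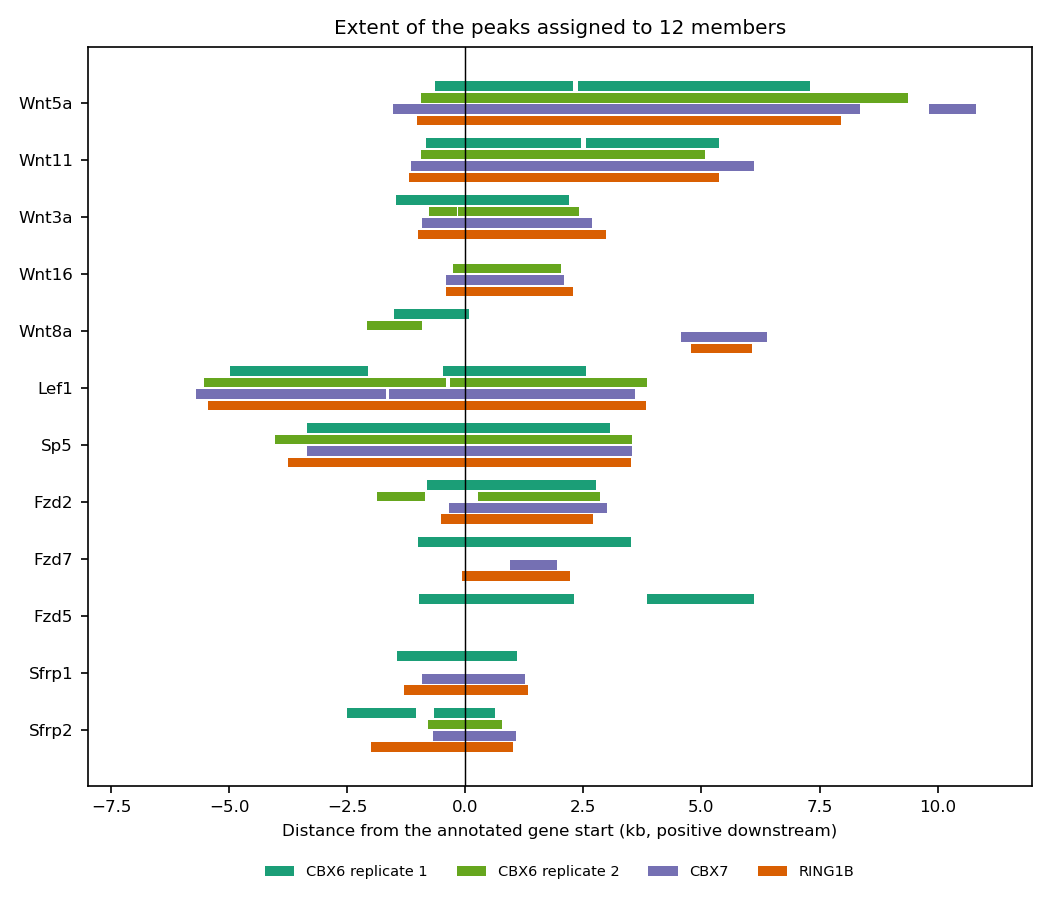
Extent of the assigned peaks around the annotated start of 12 members (horizontal axis in kb, positive downstream), with 1 colour per peak list. Sp5 and Lef1 are covered over several kb by all 4 lists, Fzd5 by CBX6 replicate 1 alone, and the CBX7 and RING1B peaks of Wnt8a lie at its 3′ end.

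Several ligand genes are neighbours in the genome. Wnt6 and Wnt10a lie 6196 bp apart on chromosome 1, Wnt1 and Wnt10b 11706 bp apart on chromosome 15, Wnt3a and Wnt9a 16175 bp apart and Wnt3 and Wnt9b 24328 bp apart on chromosome 11. Each gene of a pair had its own peaks in every list, and no peak was assigned to more than 1 member.

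The transcripts were then compared between shCbx6 and shCtl. Of the 51 members, 21 had a mean of at least 1 FPKM over the 4 libraries and were tested, in a limma fit of 11301 genes. No member passed an adjusted p of 0.05, where the fit called 0.0442% of genes higher and 0.0531% lower in shCbx6, that is 5 and 6 genes. At an unadjusted p under 0.05, 10 of the 21 members were counted, 5 higher and 5 lower, against 11.3% of all tested genes (4.88% higher and 6.47% lower). A ratio of group means of at least 1.5-fold was reached by 12 of 21, 6 higher and 6 lower, against 12.8% of genes (6.68% higher and 6.11% lower). In each of these 12 the groups did not overlap, a criterion that together with the fold held for 5.54% of genes higher and 5.51% lower. Wnt7b and Fzd2 had a mean of 1 FPKM through shCbx6, and Fzd4, Tcf7l2 and Cdx1 through shCtl, which favours such ratios, so the counts are a description. Among members with a mean of 5 FPKM or more, 5 of 12 passed 1.5-fold against 8.16% of genes, and among those from 1 to 5 FPKM, 7 of 9 against 24.4%. With a RING1B peak, 11 of 14 passed against 35.0% of such genes, and without one, 1 of 7 against 10.1%. The labels do not say whether replicates came from separate cultures, so p-values measure the spread between these libraries, which may be technical. An exact permutation test of 2 against 2 libraries cannot go below p = 0.333, and none is given. With the replicate number as a block, 5 members passed an adjusted p of 0.05 in limma, where that fit called 165 genes higher and 185 lower. Whether this number pairs the libraries is not known, and the fit without it is the one reported. Without shCbx6 replicate 1, when the remaining shCbx6 library is assumed to vary like shCtl, 8 members passed an adjusted p of 0.05 in limma, where the same fit called 3.21% of genes (225 higher and 138 lower). They were Wnt6, Wnt7b, Fzd2, Sfrp1, Sfrp2, Sfrp4, Lef1 and Cdx1. In this fit Wnt6, Wnt7b and Fzd2 had a mean of 1 FPKM through the remaining shCbx6 library alone, and Cdx1 through shCtl, so their calls there are not independent of the filter. With any other library left out, no member passed.

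**Figure D3:**
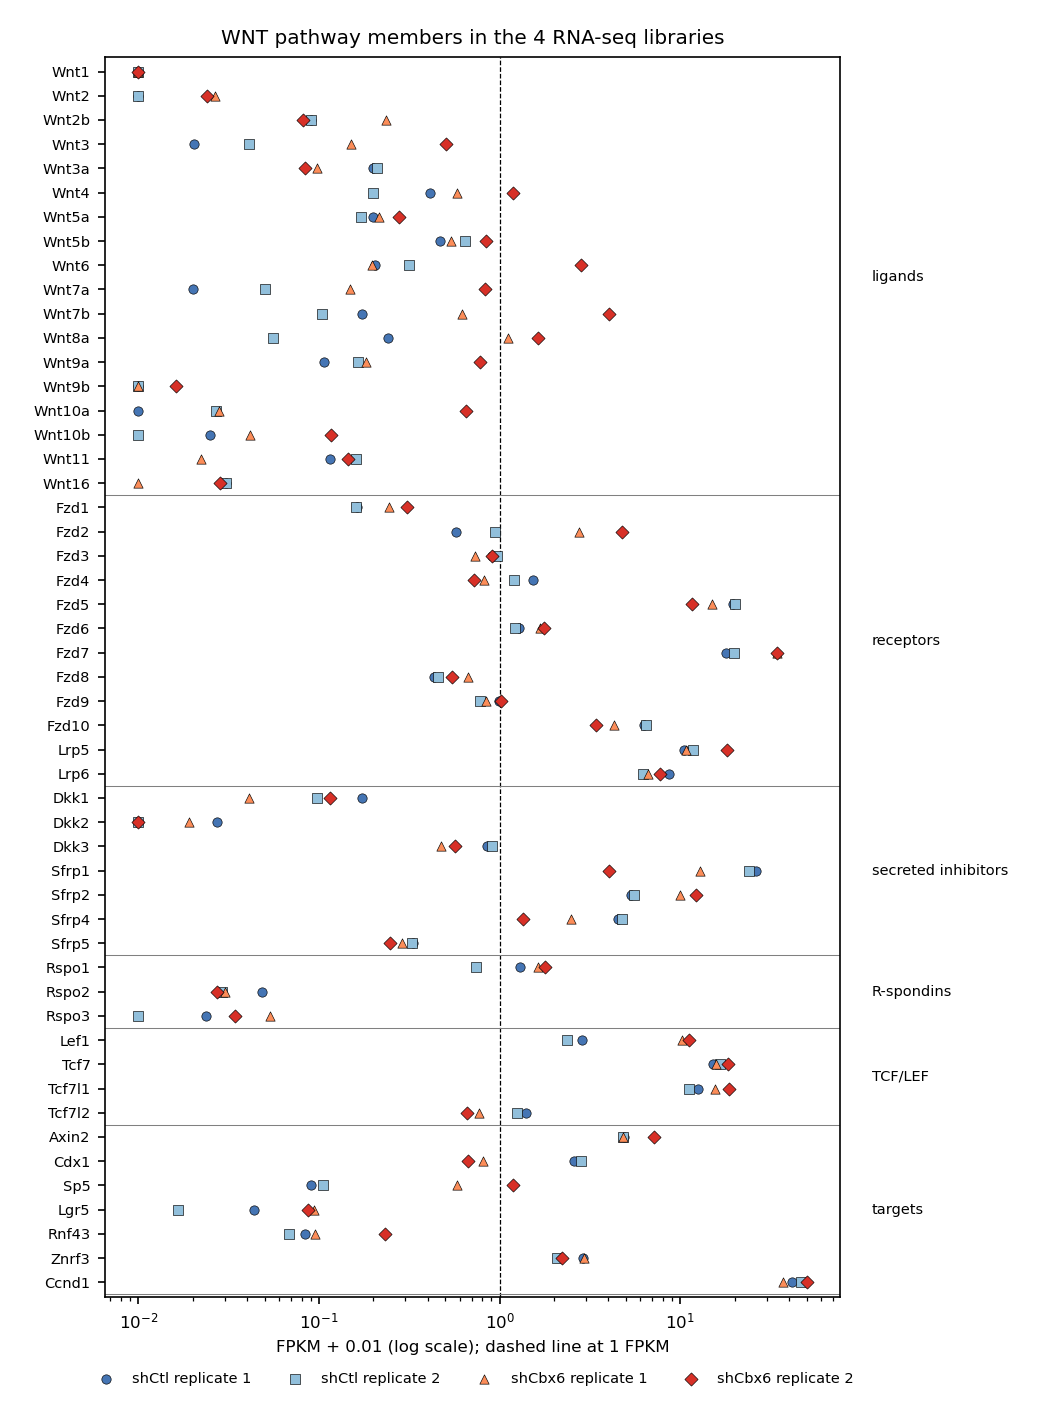
Level of each member (vertical axis, in 6 classes) in the 4 RNA-seq libraries, on a log axis of FPKM + 0.01 with a dashed line at 1 FPKM. Points are single libraries; ligands lie left of the line in both shCtl libraries, and Wnt6, Wnt7b, Wnt10a and others lie furthest right in shCbx6 replicate 2.

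Ligand transcripts were scarce in ESCs. In shCtl, all 18 ligands were under 1 FPKM in both libraries, with a median of 0.103 FPKM and a maximum of 0.636 FPKM, that of Wnt5b in replicate 2. The summed ligand level was 2.16 and 2.12 FPKM in shCtl against 4.04 and 13.9 FPKM in shCbx6. Both shCbx6 libraries were therefore above both shCtl libraries, replicate 2 far more so, and 12 of the 17 ligands detected in any library were highest in that replicate, as were 39.8% of all detected genes under a mean of 1 FPKM. Whether more cells of some type or more RNA per cell lies behind a bulk level cannot be told apart. The same library had the trophectoderm marker sum of 20.9 FPKM, with Krt7 at 9.02 FPKM, and whether these markers and the ligands come from the same cells was not tested.

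In 10 of 18 ligands both shCbx6 libraries were above both shCtl libraries, and in 2, Wnt3a and Wnt16, both were below, against 16.5% and 16.1% of all genes of the table. Among the 16 ligands that were detected but under a mean of 1 FPKM the counts were 9 and 2, where 24.3% and 13.9% of genes in this range of expression lay in each direction. Wnt7b, a ligand of epithelial and placental development, stood at 0.162 and 0.0941 FPKM in shCtl and at 0.608 and 4.04 FPKM in shCbx6. It was the sole tested ligand (log2 fold change 1.34 ± 0.54 SE, limma adjusted p = 0.452). Without shCbx6 replicate 1 the log2 fold change was 2.16 (limma adjusted p = 0.00816) and with a pseudocount of 0.1 it was 2.92 (limma adjusted p = 0.366). It was not tested without shCbx6 replicate 2, and its values differed more between the shCbx6 libraries than between the group means. Wnt8a stood at 0.230 and 0.0454 FPKM in shCtl and at 1.11 and 1.61 FPKM in shCbx6, so that here both shCbx6 libraries were near each other and above shCtl. Wnt4, a ligand of kidney and gonad development, stood at 0.401 and 0.190 FPKM in shCtl and at 0.567 and 1.18 FPKM in shCbx6. Wnt5b, at 0.460 and 0.636 FPKM in shCtl against 0.529 and 0.830 FPKM in shCbx6, overlapped between the groups.

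Further ligands were picked after their values were seen, for their difference between the shCbx6 libraries. Wnt6 stood at 0.194 and 0.304 FPKM in shCtl, at 0.186 FPKM in shCbx6 replicate 1 and at 2.82 FPKM in replicate 2. Its neighbour Wnt10a was listed at 0 and 0.0170 FPKM in shCtl, at 0.0180 FPKM in shCbx6 replicate 1 and at 0.641 FPKM in replicate 2. Both genes of this pair were thus high in a single library, a pattern that a mean over replicates hides. Wnt3 (0.0104 and 0.0307 FPKM in shCtl, 0.141 and 0.497 FPKM in shCbx6) and Wnt7a (0.0102 and 0.0401 FPKM against 0.138 and 0.820 FPKM) were higher in both shCbx6 libraries. At such levels a value is a small multiple of the lowest step of a gene, which reached 1, 3, 13 and 54 for Wnt3 in shCtl replicates 1 and 2 and shCbx6 replicates 1 and 2, and 1, 1, 0 and 1 for Wnt16. For Wnt16 the groups therefore differed by a single step, and a difference was not detectable at this depth. The same holds for Wnt2, at 0, 0, 1 and 1 steps, and, between shCtl and shCbx6 replicate 1, for Wnt10a, at 0, 1, 1 and 42 steps, and Wnt10b, at 1, 0, 2 and 8 steps, although these are counted among the 10 higher ligands. Wnt3a stood at 0.190 and 0.199 FPKM in shCtl and at 0.0868 and 0.0736 FPKM in shCbx6. Wnt1 was listed at 0 in all 4 libraries.

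Of the Frizzled genes, Fzd2 and Fzd7 were higher, and Fzd5 and Fzd10 lower, in both shCbx6 libraries at an unadjusted limma p under 0.05, and none passed an adjusted p of 0.05. Fzd7, a receptor known for its abundance in pluripotent cells, stood at 17.8 and 19.8 FPKM in shCtl and at 34.4 FPKM in each shCbx6 library. Both shCbx6 libraries were above shCtl by more than the spread between replicates (1.83-fold, log2 fold change 0.84 ± 0.13 SE, limma adjusted p = 0.127). Fzd5, slightly above Fzd7 in shCtl and the Frizzled gene with a CBX6 replicate 1 peak alone, stood at 19.6 and 20.1 FPKM in shCtl and at 15.0 and 11.6 FPKM in shCbx6 (log2 fold change -0.55 ± 0.16 SE, limma adjusted p = 0.323). The groups did not overlap, and replicate 2 was again the further from shCtl. Fzd10 stood at 6.28 and 6.45 FPKM in shCtl and at 4.27 and 3.40 FPKM in shCbx6, so that it too was lower in both shCbx6 libraries (1.66-fold, limma adjusted p = 0.261). Fzd2 stood at 0.565 and 0.932 FPKM in shCtl and at 2.75 and 4.73 FPKM in shCbx6. Both of its shCbx6 values were above shCtl, 5.00-fold on average (log2 fold change 1.42 ± 0.27 SE, limma adjusted p = 0.174), and the gene carried RING1B and CBX7 peaks with scores of 2171 and 2104.

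As a result, Fzd7 made up 36.0% and 38.1% of the summed Frizzled level in shCtl and 56.0% and 58.0% in shCbx6. The share of Fzd5 was 39.6% and 38.7% of the sum in shCtl against 24.5% and 19.6% in shCbx6. The sum itself was 49.5 and 52.0 FPKM in shCtl against 61.4 and 59.3 FPKM in shCbx6. Fzd5 and Fzd7 were thus at about the same level in shCtl, whereas Fzd7 was the more abundant in both shCbx6 libraries.

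**Figure D4:**
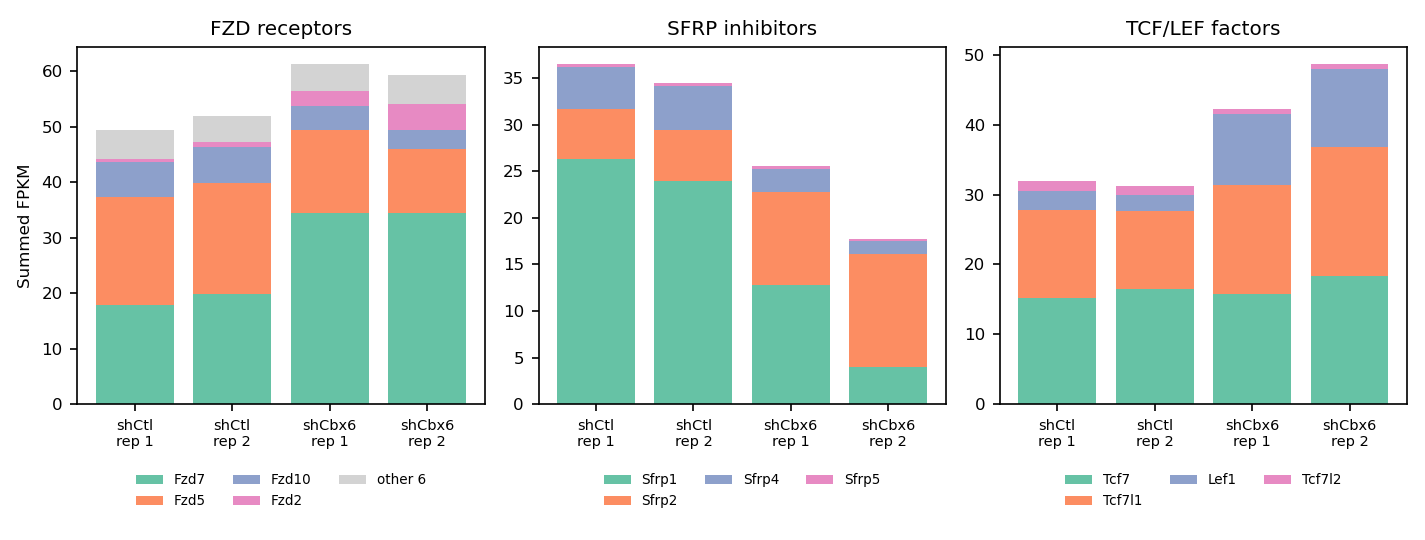
Summed FPKM (vertical axis) of the Frizzled receptors, SFRP inhibitors and TCF/LEF factors in each of the 4 RNA-seq libraries, stacked by gene. Fzd7 takes 36.0% and 38.1% of the Frizzled bar in shCtl and 56.0% and 58.0% in shCbx6, Sfrp1 shrinks from 72.2% of the SFRP bar in shCtl replicate 1 to 22.6% in shCbx6 replicate 2, and Lef1 widens within the TCF/LEF bar.

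Among the other tested receptors, none had an unadjusted p under 0.05. Fzd4 stood at 1.53 and 1.19 FPKM in shCtl and at 0.808 and 0.708 FPKM in shCbx6 (1.79-fold, limma adjusted p = 0.510), lower in both shCbx6 libraries. Fzd6 stood at 1.26 and 1.20 FPKM in shCtl and at 1.66 and 1.76 FPKM in shCbx6 (limma adjusted p = 0.627), higher in both. The co-receptor Lrp5 stood at 10.5 and 11.7 FPKM in shCtl and at 10.7 and 18.1 FPKM in shCbx6, where 1 library lay within the control range and the other above it. Lrp6, at 8.61 and 6.23 FPKM against 6.63 and 7.72 FPKM, overlapped between the groups (log2 fold change -0.03 ± 0.19 SE, limma adjusted p = 0.976). Fzd1 stood at 0.152 and 0.150 FPKM in shCtl and at 0.235 and 0.295 FPKM in shCbx6, higher in both. Of the untested receptors, Fzd1, Fzd3, Fzd8 and Fzd9 ranged from 0.150 to 1.01 FPKM. Fzd3 stood at 0.898 and 0.956 FPKM in shCtl against 0.716 and 0.895 FPKM in shCbx6, and Fzd9 at 0.982 and 0.767 FPKM against 0.829 and 1.01 FPKM, neither with a gap between the groups as wide as their spread. Fzd8 stood at 0.423 and 0.446 FPKM in shCtl and at 0.654 and 0.537 FPKM in shCbx6, higher in both shCbx6 libraries.

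Secreted inhibitors were represented mainly by SFRPs, which bind WNT ligands through a Frizzled-like domain. Sfrp1 stood at 26.4 and 23.9 FPKM in shCtl and at 12.8 and 4.00 FPKM in shCbx6. Both shCbx6 libraries were lower, although they differed from each other more than the shCtl libraries did (log2 fold change -1.65 ± 0.47 SE, limma adjusted p = 0.305). Without shCbx6 replicate 1 the log2 fold change was -2.39, and without replicate 2 it was -0.92. Sfrp2 went the other way, at 5.31 and 5.49 FPKM in shCtl against 10.0 and 12.1 FPKM in shCbx6. Here the libraries of each group lay close together and the groups apart (2.05-fold, log2 fold change 0.91 ± 0.15 SE, limma adjusted p = 0.132). Sfrp4 stood at 4.53 and 4.72 FPKM in shCtl and at 2.46 and 1.33 FPKM in shCbx6 (log2 fold change -0.99 ± 0.23 SE, limma adjusted p = 0.242). Thus Sfrp1 and Sfrp4 were lower in both shCbx6 libraries, with peaks in 3 lists and in none, and Sfrp2 was higher, with peaks in all 4. Sfrp5, also with peaks in all 4 lists, stood at 0.321 and 0.317 FPKM in shCtl and at 0.279 and 0.237 FPKM in shCbx6, lower in both.

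In shares of the SFRP sum, Sfrp1 went from 72.2% and 69.5% in shCtl to 50.2% and 22.6% in shCbx6, and Sfrp2 from 14.5% and 15.9% to 39.1% and 68.6%. The sum was 36.5 and 34.5 FPKM in shCtl against 25.6 and 17.7 FPKM in shCbx6. Sfrp1 was therefore the main SFRP of the shCtl libraries, and Sfrp2 that of shCbx6 replicate 2. DKK genes, whose products bind LRP5 and LRP6 except for the divergent DKK3, were low throughout. Dkk3 stood at 0.843 and 0.899 FPKM in shCtl and at 0.461 and 0.552 FPKM in shCbx6, lower in both shCbx6 libraries, while Dkk1 and Dkk2 reached 0.163 FPKM at most.

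Among the R-spondins, Rspo1 stood at 1.28 and 0.732 FPKM in shCtl and at 1.63 and 1.78 FPKM in shCbx6 (1.69-fold, log2 fold change 0.44 ± 0.22 SE, limma adjusted p = 0.529). The groups did not overlap, but the gap between them was smaller than the spread within shCtl, and without shCtl replicate 2 the log2 fold change was 0.25. Rspo2 and Rspo3 were at 0.0432 FPKM or less in every library.

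Lef1 was the member with the lowest p. This gene encodes the TCF/LEF factor that is itself a known target of the pathway, and it stood at 2.83 and 2.34 FPKM in shCtl and at 10.2 and 11.2 FPKM in shCbx6. Both shCbx6 libraries were about equal and well above both shCtl libraries (4.14-fold, log2 fold change 1.71 ± 0.15 SE, limma adjusted p = 0.0583). Over all alternatives of the fit, its log2 fold change ranged from 1.61 to 2.01 and its limma adjusted p from 0.0124 to 0.312. As described above, Lef1 carried peaks of several kb in all 4 lists. Tcf7l1, the main TCF repressor of ESCs, stood at 12.5 and 11.1 FPKM in shCtl and at 15.6 and 18.5 FPKM in shCbx6, higher in both shCbx6 libraries (1.44-fold, limma adjusted p = 0.332). Tcf7l2 stood at 1.40 and 1.23 FPKM in shCtl and at 0.754 and 0.647 FPKM in shCbx6, lower in both (1.88-fold, limma adjusted p = 0.479). Tcf7 stood at 15.2 and 16.5 FPKM in shCtl and at 15.8 and 18.3 FPKM in shCbx6, with overlapping groups. The share of Lef1 in the summed TCF/LEF level was 8.85% and 7.51% in shCtl and 24.0% and 23.0% in shCbx6, where the sum was 32.0 and 31.2 FPKM against 42.3 and 48.7 FPKM.

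**Figure D5:**
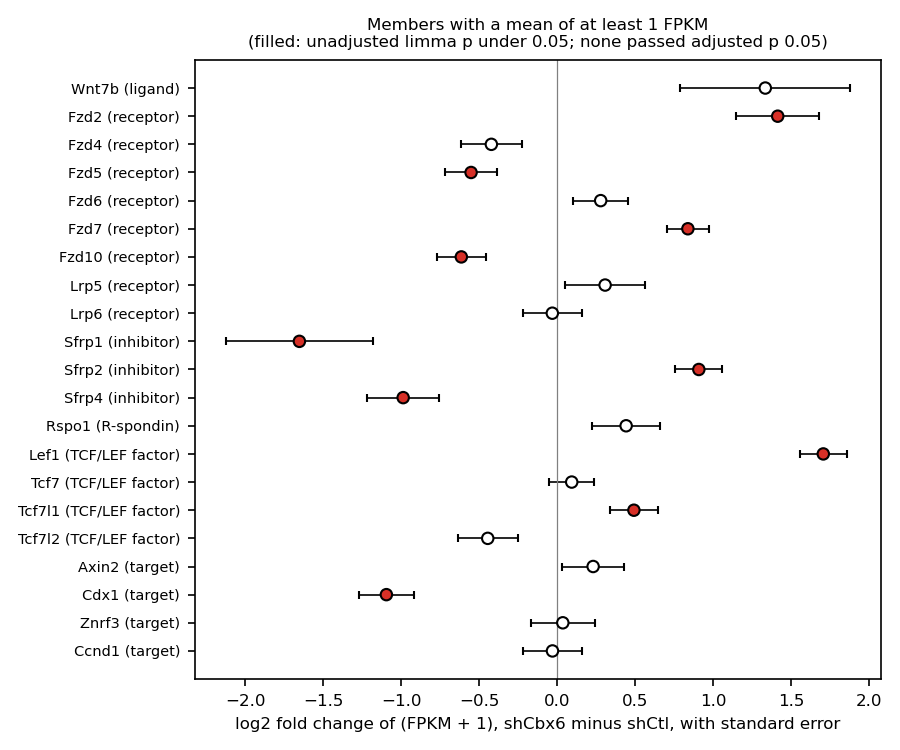
Log2 fold change of FPKM + 1 (horizontal axis, shCbx6 minus shCtl, 2 libraries each) for the 21 members with a mean of at least 1 FPKM; bars are standard errors from limma. Filled points had an unadjusted p under 0.05; none passed an adjusted p of 0.05, and Lef1 lies furthest to the right, at 1.71.

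Target and feedback genes differed in their direction. Axin2, the most widely used readout of β-catenin signalling, stood at 4.87 and 4.83 FPKM in shCtl and at 4.82 and 7.12 FPKM in shCbx6. Replicate 1 of shCbx6 thus equalled the controls and replicate 2 exceeded them (log2 fold change 0.23 ± 0.20 SE, limma adjusted p = 0.734). Znrf3 stood at 2.88 and 2.06 FPKM in shCtl and at 2.90 and 2.20 FPKM in shCbx6, and Ccnd1 at 41.5 and 46.6 FPKM against 37.1 and 50.0 FPKM, both with overlapping groups. Cdx1, a homeobox gene activated by WNT and retinoic acid, stood at 2.58 and 2.80 FPKM in shCtl and at 0.797 and 0.659 FPKM in shCbx6. It was lower in both shCbx6 libraries by more than the spread between replicates (3.69-fold, log2 fold change -1.09 ± 0.18 SE, limma adjusted p = 0.127). Sp5 stood at 0.0798 and 0.0945 FPKM in shCtl and at 0.567 and 1.17 FPKM in shCbx6. Although it was too low to be tested, both shCbx6 libraries were above shCtl, at 34 and 83 of its smallest steps against 5 and 6. Lgr5 and Rnf43, a receptor for R-spondins and a ligase that removes Frizzled proteins, were at 0.222 FPKM or less, and both were higher in both shCbx6 libraries. Of the 7 targets, Sp5, Lgr5 and Rnf43 were thus higher and Cdx1 was lower without overlap between the groups, beside 16.5% and 16.1% of all genes of the table.

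Across all 29 members that were detected but under a mean of 1 FPKM, 15 were higher and 5 lower in both shCbx6 libraries, beside 24.3% and 13.9% of genes at this level. Of the 37 members with peaks in all 4 lists, 20 were higher and 6 lower in both shCbx6 libraries, beside 28.7% and 18.1% of all genes with peaks in all 4 lists. Of the 14 members in fewer lists, 3 were higher and 6 lower, beside 15.5% and 16.5% of such genes.

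Other genes of the pathway were counted in the same way. Of 42 such genes in the table, 27 were tested, none passed a limma adjusted p of 0.05, 1 had an unadjusted p under 0.05 (11.3% of all tested genes) and 4 passed 1.5-fold (12.8% of all tested genes). The gene at p under 0.05 was Wls, whose mean reached 1 FPKM through shCbx6. Past 1.5-fold were Wls and Bcl9l, higher in shCbx6, and Porcn and Notum, lower, of which Bcl9l overlapped between the groups, with 1.26 and 1.5 FPKM in shCtl against 1.47 and 3.12 FPKM in shCbx6. Wls, which carries WNT proteins to the cell surface, stood at 0.912 and 0.966 FPKM in shCtl and at 2.08 and 4.99 FPKM in shCbx6, both above the controls (limma adjusted p = 0.318). Notum, an enzyme that removes the lipid of WNT proteins, stood at 26.1 and 19.4 FPKM in shCtl and at 18.2 and 6.61 FPKM in shCbx6, both below. None of the 11 tested genes of the cytoplasmic part of the pathway passed 1.5-fold, and Ctnnb1, the gene of β-catenin, stood at 250.1 and 275.8 FPKM in shCtl and at 242.5 and 275.7 FPKM in shCbx6, with overlapping groups (limma adjusted p = 0.979). Of all 42 genes, 11 were higher and 3 lower in both shCbx6 libraries, beside 16.5% and 16.1% of the table. Below the filter these included the WNT targets T (brachyury), Cdx2 and Cdx4 and the receptor gene Ror1. T stood at 0.0984 and 0.0324 FPKM in shCtl and at 0.446 and 0.771 FPKM in shCbx6, Cdx2 at 0.0156 and 0.0615 FPKM against 0.114 and 0.511 FPKM, and Ror1 at 0.0905 and 0.0268 FPKM against 0.369 and 0.498 FPKM. These genes were thus low in all libraries and higher in both shCbx6 libraries. The median absolute log2 fold change was 0.07 over the 27 tested genes of this list, 0.49 over the 21 members and 0.16 over all 11301 tested genes. These sets were not matched for their level. Among the members, Wnt7b, Fzd2, Fzd4, Tcf7l2 and Cdx1 met the filter through 1 group, which favours larger values.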

How the data were processed

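RNA-seq (4 libraries) and ChIP-seq (7 samples, of which 4 have the peak lists used) of E14Tg2A ESCs were analysed, grouped by the sample titles. According to their methods, the authors aligned RNA reads to mm9 with TopHat, kept 1 hit per read and estimated FPKM per RefSeq transcript with Cufflinks, and they deposited FPKM values per gene symbol and library (23290 entries for 23288 symbols, the entry with the higher mean being used); fragment counts were not used here, and the depth of the ChIP-seq is unknown. Keeping reads with 1 hit lowers genes with close copies. ChIP reads were aligned with Bowtie, keeping unique hits, and peaks were called in each sample with MACS by the authors; deposited with each peak is its MACS score, compared only within a list, since HA and CBX7 were precipitated with a kit and RING1B by another protocol. The HA control and IgG samples were not analysed here.

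From these files, limma 3.58.1 (R 4.3.3; lmFit and eBayes with trend, Benjamini-Hochberg adjustment over 11301 genes) was fitted to log2(FPKM + 1) of genes whose FPKM averaged at least 1 over all 4 libraries, with no replicate term; fold changes on this scale understate those of low genes. Ratios are of group means. Groups did not overlap where both shCbx6 values lay on 1 side of both shCtl values. The fit was tested on simulated data. Genes were placed on the GENCODE annotation of mm9, where 21921 of 23288 symbols matched (21149 by name, 772 by synonym). Promoters came from RefSeq (GRCm38.p6) and were located in mm9 by exact match. Python 3.11.15 with pandas 2.3.3, numpy 2.4.6 and matplotlib 3.10.9 was used. Alternatives covered the pseudocount, the filter, the replicate number as a block, each library left out, a stricter peak score, a larger overlap and other gene windows. The genes named singly are the members with a mean of at least 1 FPKM, and others with a level above 0.5 FPKM in both libraries of a group, the highest peak scores, or peaks in 1 or 3 lists. Others given with values (among them Wnt3, Wnt3a, Wnt6, Wnt7a, Wnt10a, Fzd1, Lgr5 and Dkk1) were chosen after their values were seen. The members, the marker and pathway lists and the tests were chosen with earlier results of these data known.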

Additional observations from a re-analysis of the deposited data

How the results depend on the processing

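Among members, no adjusted p passed 0.05 as reported, and 1 did with a pseudocount of 0.1 (Lef1). That pseudocount also moved Fzd2 to 2.16, Fzd4 to -0.76, Fzd6 to 0.44, Rspo1 to 0.75, Tcf7l2 to -0.82 and Cdx1 to -1.76 on the log2 scale. The whole fit then called 11 genes higher, and 20 lower with no filter on low FPKM, where 22 members passed 1.5-fold higher and 13 lower (16.0% and 10.1% of all genes). Same-numbered libraries deviated together with r = 0.266 over 2 pairs; the labels do not say what a shared number stands for, and whether it pairs the libraries is not known. With the replicate number as a block, 165 genes were called higher and 185 lower, 5 members passed (Fzd7, Sfrp2 and Lef1, and Fzd2 and Cdx1, which met the filter through 1 group), and Cbx6 had a log2 fold change of -1.06 with a limma adjusted p of 0.0431. Leaving out 1 library in turn gave 5 to 225 genes higher, 9 to 138 lower, 0 to 8 members past the adjusted p, 5 to 9 members past 1.5-fold higher (4.55% to 10.3% of genes) and 5 to 7 lower (6.53% to 9.85%), and -1.42 to -0.70 for Cbx6. In those fits Lrp5 ranged from -0.047 to 0.66, Lrp6 from -0.24 to 0.18, Tcf7 from -0.0093 to 0.20, Axin2 from -0.0091 to 0.47, Znrf3 from -0.13 to 0.21 and Ccnd1 from -0.24 to 0.18, each changing sign; the cause was not tested. The other tested members kept their sign under every alternative that could be fitted. Below the filter were Wnt7b without shCbx6 replicate 2, Fzd4 without shCtl replicate 1 and Tcf7l2 without either shCtl replicate. Numbers of members with peaks stayed between 36 and 49 per list under the other scores, overlaps and windows, but at a score of at least 100, R-spondins in CBX6 replicate 1 went from 3 to 0 of 3, inhibitors there from 6 to 3 of 7, targets in CBX6 replicate 2 from 5 to 3 of 7, and TCF/LEF genes in CBX7 and RING1B from 2 to 1 of 4. With CBX6 peaks found in both replicates, 1 of 4 TCF/LEF genes had one. The 29 members detected below the filter are described by their values alone, with no test.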
